A study of Arabidopsis thaliana with 14 samples.

Results

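Leaf transcript levels were compared between Arabidopsis thaliana plants labelled camta5 and wild-type Col-0 plants, pooled over 2 watering treatments. The comparison used 12 of the 14 ATH1 arrays of the series, each array holding 1 leaf RNA sample. The members were taken by title: 6 camta5 arrays (3 with water and 3 after 14 days of drought) and 6 Col-0 arrays (3 with water and 3 after 14 days of drought). All plants had the Col-0 ecotype background and were 1 month old. The remaining 2 arrays, of an overexpression line (OX5) in drought, were not part of the comparison. The question was which genes differ between the lines alike under both treatments, that is, which genotype differences do not depend on whether the plants were dry. The titles name biological replicates but not what was kept apart between them, such as plants, pots or days. The p-values below cover the spread between the arrays of a group, which may in part be technical. Those of the pooled comparison also take in how far the genotype difference changed between the treatments. What lesion the camta5 line carries, and whether it is 1 insertion, was not given in the sources used.

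CAMTA5 belongs to the calmodulin-binding transcription activators. These proteins bind DNA through a CG-1 domain and calcium-loaded calmodulin through IQ motifs, and so connect calcium signals with transcription. Members of the family are known in Arabidopsis for roles in the cold response and in restraining defence genes. Genes for subunits of the kinase SnRK1 were among those that differed between the lines, in opposite directions. They were grouped as a list only after the values were seen. SnRK1 is a plant relative of the yeast kinase Snf1 that is active when energy is short, and its beta subunits tether the complex and hold it together.

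The arrays gave MAS5 signals, a linear brightness in arbitrary units scaled to the same trimmed mean on each array. Differences are given as camta5 minus Col-0 on log2(signal + 16), with a standard error (SE) from limma, and this scale understates the change of dim genes. A call means an adjusted p under 0.05 in limma's additive fit of genotype and treatment, with Benjamini-Hochberg adjustment over all 15056 probe sets tested. Spearman coefficients over the probe sets were 0.947 to 0.974 for 2 arrays of 1 group and 0.843 to 0.977 for arrays of different groups. Array medians lay between 134.1 and 149.1.

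The signal of CAMTA5 itself (AT4G16150) was no lower on camta5 arrays than on Col-0 arrays. It was 191, 172 and 154 in camta5 with water, against 115, 179 and 152 in Col-0 with water, and the groups overlapped. In drought it was 265, 284 and 306 in camta5 and 232, 146 and 217 in Col-0, with every camta5 array above every Col-0 array. The pooled log2 difference was 0.36 ± 0.15 (SE, n = 6 each; 95% interval 0.04 to 0.68; limma adjusted p = 0.241). Nothing in the labels places the probe set relative to the lesion, and the level is no check of the genotype. Each direction below therefore rests on the label.

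One array carried conflicting labels. Camta5 water replicate 1 is camta5 by its title, but its genotype entry reads wild type. It was set against the other watered arrays over 106 probe sets chosen on the drought arrays alone (unadjusted p under 0.001 in a fit of those 6), each signed so that the direction seen in drought counts as positive. On this measure, the mean log2 distance from the Col-0 water mean was 0.62 for the array in question. It was 0.68 and 0.53 for camta5 water replicates 2 and 3, and -0.09, 0.02 and 0.07 for Col-0 water replicates 1 to 3. The array thus lay among the other camta5 water arrays and apart from the Col-0 ones. It was counted as camta5 throughout. Counted as Col-0 instead, no probe set was called by limma (lowest adjusted p = 0.0602), and 1995 had an unadjusted p under 0.05.

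**Figure D1:**
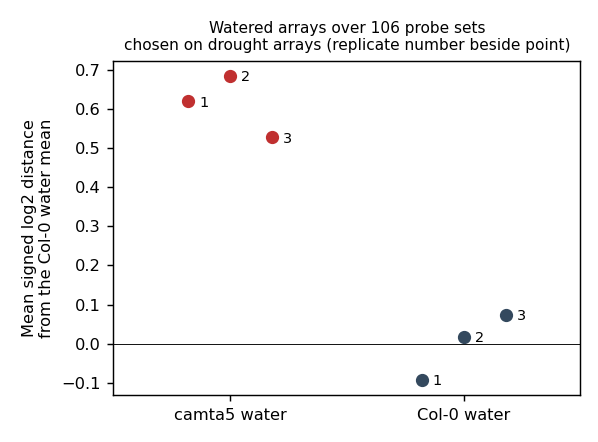
Each point is 1 watered array. The vertical axis is its mean log2 distance from the Col-0 water mean over 106 probe sets chosen on the drought arrays, signed by the direction in drought. The 3 camta5 points lie between 0.53 and 0.68, replicate 1 at 0.62, and the 3 Col-0 points between -0.09 and 0.07.

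Markers of other cell types showed no called difference, as far as they could be read. Of the fixed marker lists, those for root, guard cell, trichome and mesophyll each had 1 gene measured. The root gene PYK10 differed by 0.02 (95% interval -0.66 to 0.71), the guard-cell gene FMA by 0.34 (0.00 to 0.69), the trichome regulator TRY by 0.24 (-0.16 to 0.64) and RCA, which encodes Rubisco activase of the mesophyll, by 0.08 (-0.13 to 0.29). No flower, seed, phloem, epidermis or dividing-cell marker was measured by a probe set of its own. The share of cell types in the samples was not tested beyond these genes.

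In the pooled comparison, the SnRK1 subunit gene AKINBETA1, the storage-oil lipase gene SDP1, the auxin-conjugating gene WES1 and a set of loci named by number rose in camta5. The zinc-finger repressor gene STZ, the sugar transporter gene SWEET4, the transporter gene NPF3.1 and the SnRK1 subunit gene KINbeta2 fell. SDP1 and KINbeta2 were picked after their values were seen. The calls of WES1, STZ, SWEET4 and KINbeta2 each ended in at least 1 fit that left out an array. At an unadjusted p under 0.05, the differences of AKINBETA1, WES1 and NPF3.1 were larger in drought than with water (limma interaction contrast). In all, 247 probe sets were called, 1.64% of those tested. Of these, 159 were higher in camta5 (1.06% of those tested) and 88 were lower (0.584%). At an unadjusted p under 0.05 there were 2513. At least 2-fold differences were seen for 66 of the higher and 26 of the lower ones. The median log2 difference was 0.93 among the higher probe sets and -0.78 among the lower ones, against -0.01 over all tested. Of the called probe sets, 117 named 1 gene (68 higher, 49 lower, each a different gene), and 130 have no single gene in the annotation and are unnamed here. The largest difference, of 2.92 ± 0.50 (limma adjusted p = 0.012), was at an unnamed probe set. The rule that names the largest rises and falls below takes only called genes whose arrays do not overlap between the lines under either treatment. For those genes, separation was thus fixed by the choice.

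The number of calls fell whichever array was left out, by differing amounts. It was 129 without camta5 water replicate 1, 123 without camta5 water replicate 2, and 139, 137 and 132 without camta5 drought replicates 1, 2 and 3. It was 123 and 107 without Col-0 water replicates 1 and 2, and 113 without Col-0 drought replicate 3. Without Col-0 drought replicate 1 the lower calls numbered 54. In each of the 8 smallest of these sets, 104 to 128 probe sets were also called with all 12 arrays.

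AKINBETA1 (AT5G21170) encodes a beta subunit of SnRK1. Its signals were 1520, 1921 and 1614 in camta5 with water, against 834, 968 and 1131 in Col-0 with water. In drought they were 1720, 1333 and 1351 in camta5, against 514, 367 and 372 in Col-0. All camta5 arrays lay above all Col-0 arrays under both treatments, and the camta5 signals in drought and with water covered overlapping ranges. The pooled log2 difference was 1.28 ± 0.18 (SE, n = 6 each; 2.43-fold; limma adjusted p = 0.00596). In these leaf samples, a difference in the share of cells that hold a transcript and a difference in transcript per cell cannot be told apart, here or for any gene below.

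KINbeta2 (AT4G16360), named so among the RefSeq synonyms, encodes another beta subunit of the kinase and lay on the opposite side. With water its signals were 421, 375 and 395 in camta5 and 514, 566 and 502 in Col-0. In drought they were 420, 432 and 481 in camta5 and 705, 675 and 762 in Col-0. The pooled difference was -0.53 ± 0.10 (limma adjusted p = 0.0201), and the camta5 arrays were below the Col-0 arrays under both treatments. The call ended without Col-0 drought replicate 3 (-0.49, limma adjusted p = 0.0544). The small subunit KINbeta3 (AT2G28060) differed by 0.06 (95% interval -0.15 to 0.28). These 3 were the measured members of 7 listed SnRK1 subunit genes, a list that, like KINbeta2, was chosen after the values were seen. AKINBETA1 was called higher and KINbeta2 lower, where 1.06% of all probe sets tested were called higher and 0.584% lower.

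Called too were SDP1, SFP1 and bZIP44. SDP1 (AT5G04040), whose name stands for SUGAR-DEPENDENT1 and which encodes the lipase that begins the breakdown of storage oil in seedlings, had signals of 392, 429 and 422 in camta5 with water, against 223, 285 and 357 in Col-0 with water. In drought they were 778, 725 and 795 in camta5, against 410, 430 and 351 in Col-0. The lines did not overlap under either treatment, and the pooled difference was 0.72 ± 0.13 (limma adjusted p = 0.0151), a call that held without any 1 array. SFP1 (AT5G27350), of the sugar-porter family, was higher by 0.63 ± 0.15 (limma adjusted p = 0.0481), but its call ended without any 1 of the 12 arrays (limma adjusted p 0.0523 to 0.102). The SFP1 call was lost in 20 of 27 alternative settings in all. bZIP44 (AT1G75390), a transcription factor of the S1 group of bZIP proteins, was higher by 0.83 ± 0.19 (limma adjusted p = 0.0426). That call ended without any 1 array other than camta5 water replicate 2 and Col-0 drought replicate 1 (limma adjusted p 0.0592 to 0.0928). Of 5 listed S1 bZIP genes, a list added after the values were seen, 2 were measured. The other, BZIP53, was at 0.08 and not called, where 1.06% of all probe sets tested were called higher. SDP1 and SFP1 were picked after their values were seen.

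SWEET4 (AT3G28007), a sugar transporter gene, was lower in camta5. Its signals were 105, 122 and 128 in camta5 with water, against 174, 212 and 207 in Col-0 with water, and 419, 607 and 569 in camta5 in drought, against 752, 2343 and 1865 in Col-0 in drought. The camta5 arrays were below all Col-0 arrays of the same treatment. The pooled difference was -1.07 ± 0.24 (limma adjusted p = 0.0435), and the call ended without any 1 of the arrays other than Col-0 drought replicate 1 (limma adjusted p 0.0528 to 0.0964). Of 17 SWEET family genes, a list added after the values were seen, 10 were measured and SWEET4 was the called one. Of all probe sets tested, 0.584% were called lower and 1.06% higher. The other SWEET genes lay between -0.71 (SAG29) and 0.97 (SWEET16), with a family median of -0.09. SWEET16 and AtVEX1 exceeded the filter on camta5 arrays only (5 and 2 of them). Since they passed through the line in which they are high, the filter itself favoured their direction, and the family's values are a description.

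The largest rises among named genes with no overlap between the lines were loci that carry only a number in the annotation. AT5G62280 had signals of 364, 452 and 554 in camta5 with water, against 80.1, 168 and 191 in Col-0 with water, and 1004, 297 and 497 in camta5 in drought, against 91.8, 31.9 and 13.4 in Col-0 in drought. Its pooled difference was 2.48 ± 0.40 (5.57-fold; limma adjusted p = 0.0104). No camta5 array was as dim as any Col-0 array. AT3G15450 had 9067, 12611 and 9347 in camta5 with water, against 4551, 5123 and 7534 in Col-0 with water. In drought it had 6920, 5198 and 4549 in camta5, against 1805, 795 and 543 in Col-0, and the pooled difference was 1.71 ± 0.32 (limma adjusted p = 0.0201).

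AT4G27450 differed by almost the same amount under both treatments. It had 4269, 5083 and 2382 in camta5 with water, against 741, 1049 and 1978 in Col-0 with water, and 8556, 6056 and 6619 in camta5 in drought, against 2150, 3468 and 1058 in Col-0 in drought. The pooled difference was 1.74 ± 0.29 (limma adjusted p = 0.0113). AT5G65660 was higher by 1.57 ± 0.22, AT3G62950 by 1.39 ± 0.21 and AT5G59080 by 1.32 ± 0.24, each with no overlap under either treatment and each called without any 1 array. Of all probe sets tested, 148 had no Col-0 array above the filter and 172 had no camta5 array above it. None of the 88 lower calls lacked a camta5 array above the filter. Of the 159 higher calls, 4 had no Col-0 array above it and so were tested through camta5 arrays alone. AT3G54070 (2 camta5 arrays above the filter) and AT5G43180 (5 of them) are among these. Since they passed through the line in which they are high, the filter itself favoured their direction, and their values are a description. For AT3G54070, at 33.9 to 73.3 in camta5 and 2.59 to 33.2 in Col-0, the size depended on the offset, since the signals lay near the floor. It was 1.54 ± 0.33 with the offset of 16, 2.87 with an offset of 1 (limma adjusted p = 0.0659) and 0.71 with an offset of 64. Its call held without camta5 water replicate 3 or Col-0 drought replicate 3, and ended wherever else it was tested with 1 array left out (limma adjusted p up to 0.0814). AT5G43180, at 1.76 ± 0.37, likewise moved to 1.17 with an offset of 64. Its call ended without camta5 water replicate 1, camta5 drought replicates 2 or 3, Col-0 water replicate 2 or any 1 Col-0 drought array (limma adjusted p up to 0.0736).

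**Figure D2:**
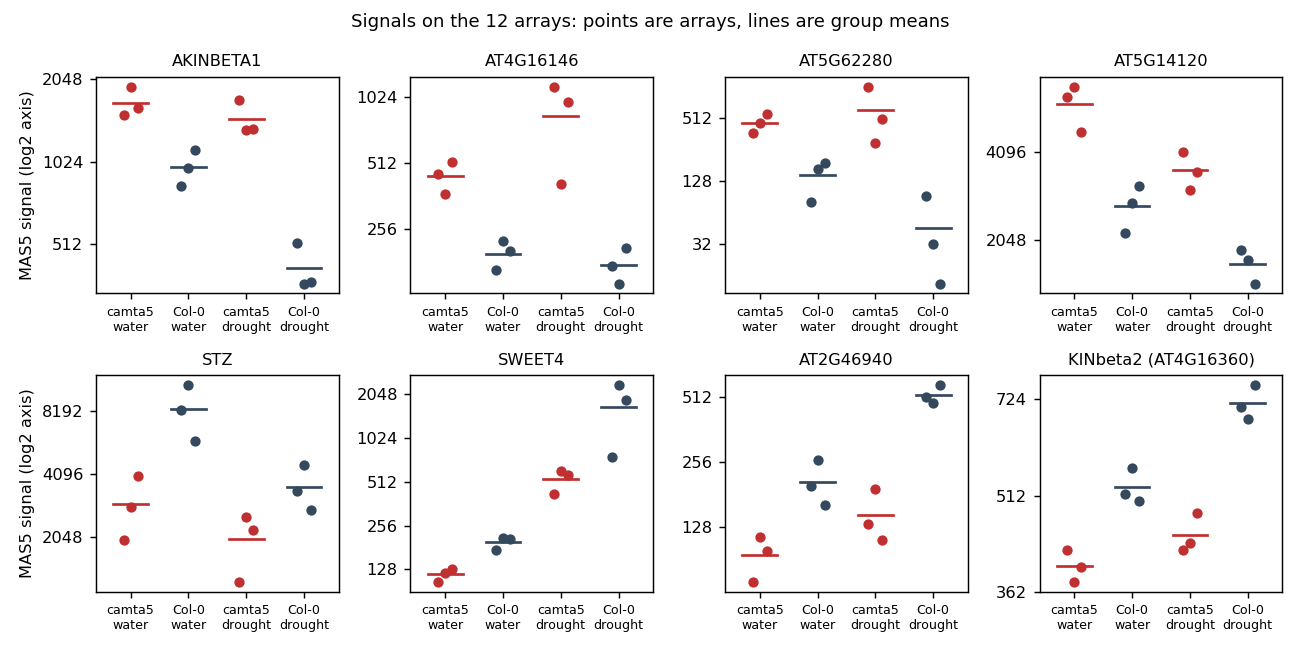
Signals of 8 genes on the 12 arrays, on log2 axes of MAS5 signal, with 1 point per array and a line at each group mean. In each panel the camta5 arrays (red) lie wholly above or wholly below the Col-0 arrays (dark blue) within each treatment, for instance AKINBETA1 at 1333 to 1921 in camta5 and 367 to 1131 in Col-0.

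Among the genes with a symbol, rises were smaller. NAMT1 (AT5G04370), a nicotinate methyltransferase gene, was higher by 1.11 ± 0.21 (limma adjusted p = 0.0195), with 178, 123 and 110 in camta5 with water, against 77.0, 97.8 and 85.3 in Col-0 with water, and 229, 236 and 231 in camta5 in drought, against 50.5, 70.4 and 67.6 in Col-0 in drought. The call held without any 1 array. WES1 (AT4G27260, also GH3.5), which encodes an enzyme that joins auxin to amino acids, was higher by 0.93 ± 0.20 (limma adjusted p = 0.0349). That call ended without any 1 camta5 drought array, and also without camta5 water replicate 2, without Col-0 water replicate 2 and without Col-0 drought replicates 1 or 3 (limma adjusted p up to 0.074). WES1 was the called one of 3 measured auxin-response genes, where 1.06% of all probe sets tested were called higher. The other members also had positive differences, of 0.74 for the homeobox gene HAT2 (limma adjusted p = 0.0837) and 0.70 for IAA29, an auxin-response repressor gene.

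The rule also named AT5G05600 (1.62), AT3G50560 (1.14) and SIS, a salt-induced serine-rich protein gene (0.85), among the rises. Their calls, at limma adjusted p of 0.0461, 0.0294 and 0.0397, ended without 7 to 9 of the 12 arrays each. All 3 had no overlap between the lines under either treatment, as the rule requires.

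Transcription factor genes were called in both directions. BPC1 (AT2G01930), a GAGA-binding factor, was higher by 0.79 ± 0.19 (limma adjusted p = 0.049), and DEWAX (AT5G61590), a repressor of wax synthesis chosen after its values were seen, by 0.79 ± 0.17 (limma adjusted p = 0.034). The BPC1 call ended without any 1 array other than camta5 drought replicate 2 and Col-0 water replicate 3 (limma adjusted p up to 0.105). In all it was lost in 22 of 27 alternative settings, with quantile normalization, median scaling and the group-mean fit among them. The DEWAX call held without camta5 drought replicate 3, without Col-0 water replicate 3 and without Col-0 drought replicates 1 or 2, and ended without any 1 of the others (up to 0.0783). SNZ (AT2G39250), an AP2-type repressor of flowering, was lower by 0.97 on the log2 scale (log2 difference -0.97 ± 0.22, limma adjusted p = 0.0433). The call held when camta5 water replicate 1 or 2 was the array left out and ended without any 1 of the others (up to 0.097). It was lost in 18 of 27 alternative settings in all.

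STZ (AT1G27730, also ZAT10), a zinc-finger repressor induced by many stresses, was lower in camta5. It had 1978, 2860 and 4019 in camta5 with water, against 8338, 10892 and 5921 in Col-0 with water. In drought it had 1254, 2549 and 2208 in camta5, against 3397, 4549 and 2770 in Col-0. The camta5 arrays lay below the Col-0 arrays under both treatments, and the pooled difference was -1.19 ± 0.23 (limma adjusted p = 0.0242). The call ended without camta5 water replicate 2, Col-0 water replicate 1 or Col-0 water replicate 2 (limma adjusted p 0.0575 to 0.0596).

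AT3G02840, another gene of the fixed list of rapid stress-response genes, had 131, 146 and 276 in camta5 with water, against 452, 829 and 1259 in Col-0 with water. In drought its 180, 197 and 302 in camta5 overlapped the 486, 346 and 259 in Col-0. Its pooled difference was -1.35 ± 0.31 (limma adjusted p = 0.0461), and the call ended without any 1 array other than camta5 drought replicate 3 and Col-0 drought replicate 3 (up to 0.105). Of the 9 measured genes of that list, these 2 were called lower and none higher, where 0.584% of all probe sets tested were called lower and 1.06% higher. The median of the 9 was -0.43, at 0.05 in drought and -0.87 with water. The members that did not pass included the calmodulin-like gene CML37 at -1.23 and WRKY53 at -0.60 on one side, and on the other WRKY22 at 0.21 and the ubiquitin-ligase genes PUB24 at 0.08 and PUB22 at 0.03.

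NPF3.1 (AT1G68570), of the NRT1/PTR family of transporters, had 749, 667 and 646 in camta5 with water, against 898, 1500 and 1029 in Col-0 with water, and 1109, 1240 and 807 in camta5 in drought, against 2843, 2975 and 3640 in Col-0 in drought. The pooled difference was -1.14 ± 0.19 (limma adjusted p = 0.0107), and the lines did not overlap. The locus AT2G46940 had the fall with the smallest adjusted p among the named ones, together with AT4G34630. It had 71.4, 115 and 99.1 in camta5 with water, against 198, 260 and 162 in Col-0 with water, and 133, 192 and 112 in camta5 in drought, against 511, 480 and 578 in Col-0 in drought. Its difference was -1.38 ± 0.19 (limma adjusted p = 0.00558), that of AT4G34630 -1.04 ± 0.14 and that of AT1G14200 -1.23 ± 0.18. All 4 stayed called without any 1 array, as did AT4G34950 at -1.42 ± 0.24 and AT5G45630 at -1.21 ± 0.22. The remaining falls of the rule, AT1G72920 (-1.26), AT1G77580 (-1.24), AT4G30660 (-1.05) and AT3G53400 (-1.02), were separated too, as the rule requires. Their calls ended without 4 to 9 of the 12 arrays (limma adjusted p up to 0.103).

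Smaller falls were those of the tetraspanin gene TET2 (-0.67), the small GTPase gene ARLA1A (-0.56) and CRR42 (-0.55), which serves the assembly of the chloroplast NDH complex. The copper chaperone gene CCS (-0.46) and the pectin methylesterase gene PMEPCRF (-0.53) were picked after their values were seen. The limma adjusted p of these 5 lay between 0.0319 and 0.0447, and in the 4 that were refitted without single arrays (all but CCS) the calls ended without 7 to 10 of the 12 arrays. The called genes with the most negative differences, AT5G55450 (-2.03), AT1G76960 (-1.94) and AT3G10930 (-1.51), were called although their arrays overlapped between the lines under 1 treatment. AT5G55450, for example, had 48.6, 129 and 41.6 in camta5 with water, against 110, 251 and 212 in Col-0 with water, and 86.3, 29.1 and 54.0 in camta5 in drought, against 416, 285 and 780 in Col-0 in drought.

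How far the differences were alike under both treatments was read from the same 12 arrays in a fit with 1 mean per group. All 247 called probe sets had the same sign in drought and with water, against 59.8% of all probe sets tested. The pooled fit favours such a result, so it is a description. The size was larger in drought for 188 of the 247 (76.1%, against 59.1% of all tested). Among the higher probe sets the median difference was 1.104 in drought and 0.72 with water, and among the lower ones -0.84 in drought and -0.68 with water. The camta5 arrays lay all above or all below the Col-0 arrays, on the same side under both treatments, for 522 probe sets (3.47% of those tested, 293 or 1.95% above and 229 or 1.52% below). Of the 247 called, 193 were of this kind, 124 above and 69 below. For 68 of all the probe sets tested the arrays separated under both treatments but on opposite sides, and none of these was called.

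**Figure D3:**
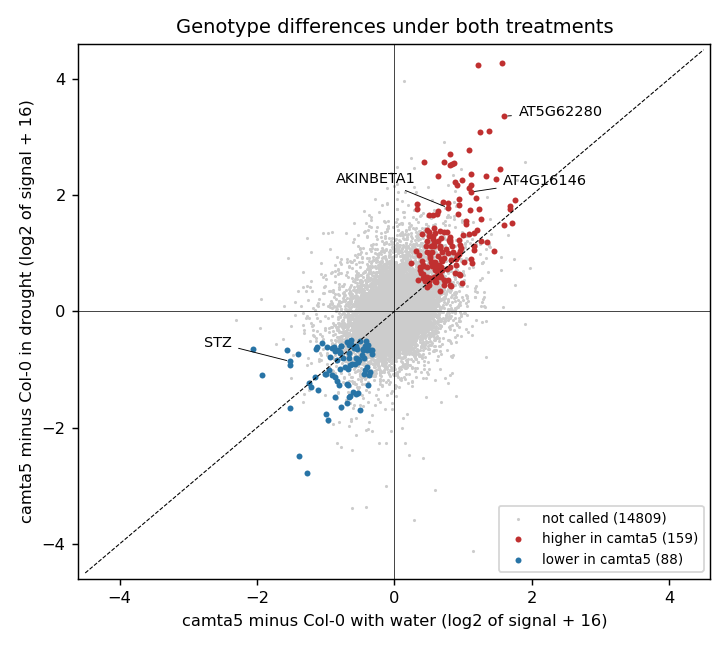
Genotype differences of the 15056 probe sets tested, as camta5 minus Col-0 on log2(signal + 16), with water on the horizontal axis and in drought on the vertical axis. Red points (159) and blue points (88) passed an adjusted p under 0.05 in the pooled fit and lie in the quadrants of equal sign. The dashed line marks equal differences, and 188 of the 247 called points have the larger size in drought.

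The test of the difference between both genotype differences called no probe set (limma, 0% of those tested, lowest adjusted p = 0.548), with 918 at an unadjusted p under 0.05. Without Col-0 drought replicate 1 it called 30. A missing call does not show equal differences. The 95% interval of the drought minus water difference lay wholly within -1 to 1 for 107 of the 247 called probe sets (43.3%, against 52.3% of all tested), and its median half-width was 0.70 among the called. At an unadjusted p under 0.05 the differences were unequal for 54 of the 247 (21.9%, against 6.10% of all tested), and 51 of these 54 had the larger difference in drought.

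Some genes were therefore bounded closely and others were not. AT5G14120 had 6325, 6859 and 4820 in camta5 with water, against 2170, 2739 and 3145 in Col-0 with water. In drought it had 4116, 3035 and 3504 in camta5, against 1885, 1743 and 1449 in Col-0. Its difference was 1.06 in drought and 1.16 with water (pooled 1.11 ± 0.13, limma adjusted p = 0.00419), and the drought minus water difference was -0.10 with a 95% interval of -0.67 to 0.48. AT5G66590 differed by 0.98 in drought and 0.94 with water (drought minus water 0.04, interval -0.46 to 0.54), and AT5G18630 by 0.71 in drought and 0.68 with water (0.03, interval -0.42 to 0.49). These 3 loci were picked after their values were seen. AT4G27450 differed by 1.80 in drought and 1.68 with water, but the interval of its drought minus water difference was wide, from -1.15 to 1.41.

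For AKINBETA1 the difference was 1.78 in drought and 0.78 with water, so that drought minus water was 1.00 (95% interval 0.44 to 1.56; unadjusted p = 0.00186, limma adjusted p = 0.724). At this unadjusted level, the interval of drought minus water excluded 0 for 14 of the 34 called genes that the naming rule gave. It did so for 21.9% of all called and 6.10% of all tested probe sets. The size was greater in drought for 59.1% of all tested, 51 of the 54 called at this level and 13 of these 14. Besides AKINBETA1, the rises among them were AT3G15450 (2.55 in drought and 0.87 with water, interval of drought minus water 0.63 to 2.74), NAMT1 (1.66 in drought and 0.56 with water, interval 0.44 to 1.77), WES1 (1.40 in drought and 0.47 with water, interval 0.23 to 1.62), and 6 other loci known by number. These 6 were AT5G62280 (3.36 in drought and 1.598 with water, interval 0.30 to 3.22), AT5G43180 (2.71 and 0.81, interval 0.69 to 3.12), AT5G59080 (1.86 and 0.78, interval 0.24 to 1.93), AT3G62950 (1.83 and 0.94, interval 0.14 to 1.65), AT3G50560 (1.67 and 0.62, interval 0.21 to 1.89) and AT4G16146 (2.05 and 1.11, interval 0.01 to 1.87). The falls larger in drought were those of NPF3.1 (-1.58 in drought and -0.69 with water, interval -1.53 to -0.26), AT2G46940 (-1.77 and -0.9999, interval -1.48 to -0.06) and AT5G45630 (-1.65 and -0.77, interval -1.72 to -0.03). AT3G02840 went the other way, at -0.64 in drought and -2.06 with water (interval 0.31 to 2.53). STZ was at -0.86 in drought and -1.52 with water, with an interval of -0.31 to 1.62 that includes equal differences. None of these passed adjustment over all probe sets tested. AT5G43180 passed the filter through camta5 arrays alone, so its values are a description here too.

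Within single treatments the fit with 1 mean per group called 217 probe sets in drought (limma, 1.44% of those tested, 146 higher and 71 lower) and 0 with water (0%, 1074 at an unadjusted p under 0.05). Of the 247 pooled calls, 111 were also called within drought and 136 were not. These counts depended on which arrays shared the estimate of the spread. In a fit of the 6 arrays of 1 treatment alone, a setting added after the values were seen, limma called 9 probe sets in drought and 45 with water. The 217 became 573 without Col-0 drought replicate 1, 61 without Col-0 drought replicate 3, 94 without camta5 drought replicate 3 and 144 without Col-0 water replicate 2.

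The watered and droughted plants share no array, so probe sets chosen under 1 treatment could be read under the other. With a choice at an unadjusted p under 0.001 on the 6 water arrays, 70 probe sets were higher in camta5, and 68 of them (97.1%) were higher in drought too, where 45.8% of all tested were above 0. Their median was 1.06 in drought, against 1.00 with water. Of the 61 lower with water, 50 (82.0%) were lower in drought, where 54.2% of all were below 0, and their median was -0.45 in drought, against -1.11 with water. Of the probe sets chosen with water, the median of the higher ones was thus as large in drought, and that of the lower ones was smaller. With the choice made on the 6 drought arrays, 73 of 77 higher in drought (94.8%, background 51.2%) and 24 of 29 lower in drought (82.8%, background 48.8%) had the same sign with water. The medians of the higher ones were 1.36 in drought and 0.63 with water, and those of the lower ones -1.38 in drought and -0.56 with water, so that here both were smaller on the arrays that did not choose them. Across all 15056 probe sets, which are not independent of each other, the 2 sets of differences had a Pearson coefficient of 0.354 and a Spearman coefficient of 0.304.

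A gene that lies next to CAMTA5 differed more than CAMTA5 did. AT4G16146 is the adjacent protein-coding gene on the side of lower locus numbers, in the RefSeq gene order of assembly TAIR10.1. Its signals were 453, 368 and 516 in camta5 with water, against 165, 224 and 202 in Col-0 with water. In drought they were 1136, 411 and 974 in camta5, against 173, 144 and 210 in Col-0. The arrays did not overlap, the pooled difference was 1.58 ± 0.24 (3.00-fold; limma adjusted p = 0.008), and the call held without any 1 array.

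Around CAMTA5, 10 of the 40 protein-coding genes within 20 positions on either side had a probe set of their own that was tested. AT4G16146 was the called one of these 10. The other 9 lay between -0.48 and 0.25, and the nearest gene on the opposite side, AT4G16155, was at 0.25 ± 0.15. KINbeta2, described above, lies 25 protein-coding genes from CAMTA5. Over the nuclear chromosomes the share of tested genes that were called ran from 1.21% (chromosome 3) to 1.55% (chromosomes 1 and 5), with 1.54% on chromosome 4, where CAMTA5 lies. None of 69 plastid genes was called.

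**Figure D4:**
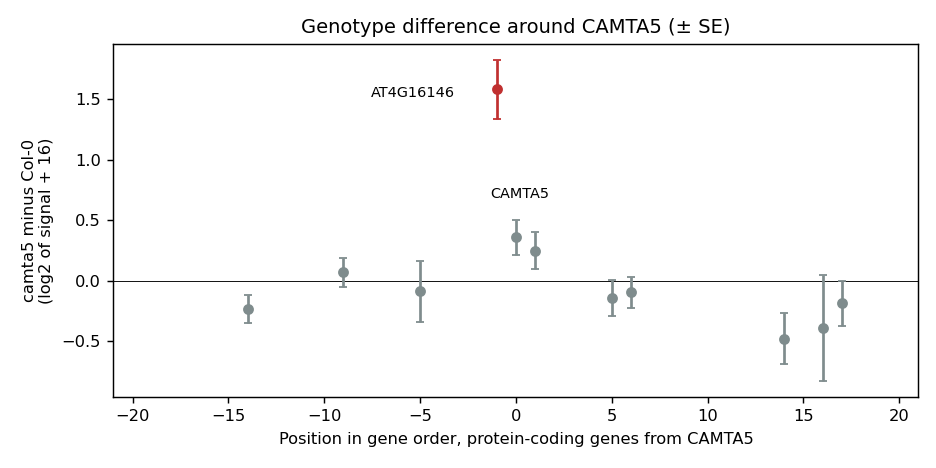
Pooled log2 difference (camta5 minus Col-0, ± SE) of the tested genes around CAMTA5, placed by their position in the order of protein-coding genes. AT4G16146, next to CAMTA5, stands at 1.58, CAMTA5 at 0.36, and the other 9 tested neighbours lie between -0.48 and 0.25.

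Most of the fixed lists held no called gene, though few of their members could be read. Of 412 list entries in 27 lists, 71 had a tested probe set of their own, and 8 lists had none. The CAMTA family (3 of 6 measured), cold-regulated genes (6 of 19), dehydration and abscisic acid genes (3 of 18), salicylate (2 of 21) and jasmonate or ethylene defence genes (3 of 27) had no call. With 1.64% of all probe sets called, no call in a list of this size is near the background. In the cold list the median was 0.32, with COR47, a dehydrin gene, at 0.68 (limma adjusted p = 0.161). In the dehydration list all 3 members were below 0, with a median of -0.38, the late-embryogenesis gene LEA4-5 being at -0.38 with a 95% interval of -1.45 to 0.68. That interval includes falls larger than -0.78, the median of the called lower probe sets.

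The flavonoid and anthocyanin list, of which 6 of 33 genes were measured, held no called gene. Of the 6, DFR, AT4G14090 and the anthocyanin glycosyltransferase gene UF3GT exceeded the filter on Col-0 drought arrays only. The filter itself thus favoured lower camta5 signals in drought, and the list's values are given as a description. Its pooled median was -1.11, at -2.12 in drought and -0.26 with water. None of the members passed the test of the difference between treatments. DFR, the dihydroflavonol reductase gene, was at 34.6, 11.6 and 49.3 in camta5 with water, against 2.42, 5.95 and 5.195 in Col-0 with water. In drought it was at 49.7, 45.4 and 47.5 in camta5, against 352, 606 and 5963 in Col-0. Its difference was -4.13 in drought and 1.14 with water, and the pooled -1.50 (limma adjusted p = 0.409) describes neither treatment. Col-0 drought replicate 3 stood apart in this list. UF3GT had 33.3, 36.5 and 14.4 in camta5 in drought, against 134, 187 and 1298 in Col-0 in drought, and CHIL, of the chalcone isomerase family, had 233, 69.4 and 66.5 in camta5, against 199.9, 93.7 and 964 in Col-0. Without that array, a setting added after the values were seen, the median of the list was -1.23 in drought and -0.65 pooled.

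Of the wall-loosening list 11 of 30 genes were measured, with no call and a median of -0.32. EXLB1, an expansin-like gene, was at -1.55 (limma adjusted p = 0.099) with no overlap between the lines under either treatment. Of the nuclear photosynthesis genes 7 of 45 were measured, with a median of 0.08 and a range of -0.37 to 0.25. At the ends lay PORB, a protochlorophyllide reductase gene (-0.37, 95% interval -0.91 to 0.17), and the antenna gene LHCB4.2 (0.25, interval -0.16 to 0.65). The interval of PSBY, a photosystem subunit gene, was -0.19 to 0.55, and those of RCA, LHCB4.1 and PSBW lay within -0.21 to 0.29. The clock (4 of 27), senescence (5 of 19), cytokinin (2 of 15) and glucosinolate (3 of 22) lists also had no call, and their pooled medians were 0.11, -0.25, 0.62 and 0.00. In the last 2 of these lists the treatments had opposite signs. The cytokinin median was -0.17 in drought and 1.40 with water, where the response regulator gene ARR15 was at -0.22 in drought and 1.91 with water. The glucosinolate median was 0.45 in drought and -0.44 with water.

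Of 69 plastid-encoded genes, 56 were above 0 in the pooled fit, with a median of 0.23, at 0.45 in drought and 0.03 with water. These values rest on camta5 drought replicate 1, which was the highest of its group for 64 of the 69 genes. The photosystem II gene psbD, for example, had 10963, 2543 and 2111 in camta5 in drought, against 1831, 1553 and 1695 in Col-0 in drought, and ndhG, of the NDH complex, had 5885, 619 and 677 in camta5, against 757, 509 and 429 in Col-0. The median log2 signal of the 69 genes was 13.5 on that array, against 12.4 and 12.5 on the other camta5 drought arrays, 12.2 to 12.6 on the Col-0 drought arrays and 13.2 to 13.5 on the watered arrays. Without it, a setting added after the values were seen, 35 of the 69 were above 0, and the median was 0.02 pooled and 0.03 in drought. What sets this array apart was not tested.

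**Figure D5:**
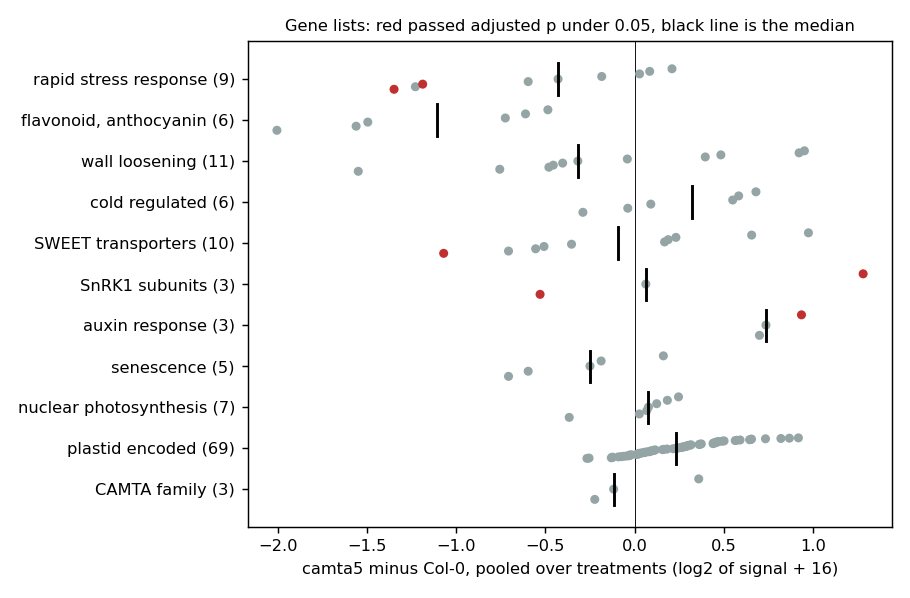
Pooled log2 difference (camta5 minus Col-0) of each measured gene of 11 lists, with the number measured in brackets, red where limma's adjusted p was under 0.05 and a black line at the list median. Called genes appear in the rapid stress (2), SWEET (1), SnRK1 (2) and auxin (1) lists, and the flavonoid list has the most negative median at -1.11, with 3 of its 6 genes past the filter on Col-0 drought arrays only. In the SWEET list, SWEET16 and AtVEX1 passed it on camta5 arrays only. The SWEET and SnRK1 lists were added after the values were seen.

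The threshold cut through a continuous range. The last calls included AT1G69160 at 0.87 and AT2G15020 at -0.73, each with an adjusted p of 0.05 (limma, 0.0499843). Just outside lay 3 unnamed probe sets at 0.47, 1.14 and -0.49, with limma adjusted p of 0.0503 to 0.0507. The smallest called difference was 0.44 in size.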

How the data were processed

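The deposited values are linear signal intensities, computed by the authors with MAS5. The submitters' processing notes name Affymetrix Expression Console, with no version. Each array's mean, with 2% trimmed at each end, is 500 in the deposited intensities. Detection calls and scan batches were not used here. There is no read depth, and the number of arrays limits the precision.

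Gene names came from the platform annotation, and symbols were updated by Entrez number from RefSeq (TAIR10.1). Of 22810 probe sets, 64 are controls, 13513 name 1 gene (13436 matched to RefSeq), 503 several and 8794 none. No coordinates or sequences are printed, and the promoter letters planned for a search were not searched, since no sequence table was given. Tested probe sets exceeded the 40th percentile of an array on at least 2 of the 12 arrays, which left out 7690. Of several probe sets of a gene, the one of highest mean was used. Signals were analysed as log2(signal + 16) in limma 3.58.1 (R 4.3.3) with genotype and treatment as terms, no replicate block and a trend, two-sided. Interaction and within-treatment differences came from a fit with 1 mean per group of the same arrays. The procedure was tested on simulated data.

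The comparison, gene lists and naming rule were chosen with earlier results of these data known, so none of them is independent support. The rule names CAMTA5, the 12 largest rises and falls among called genes whose arrays do not overlap under both treatments, 6 each with a symbol, and 2 genes per list. Plastid genes were taken by their RefSeq chromosome, because the locus prefix planned did not match, and lists of SnRK1, SWEET and S1 bZIP genes were added after the values were seen. Alternatives were offsets of 1 and 64, other filters, normalizations and moderation, array weights, other fits, the replicate block, stricter thresholds, the other label of 1 array and leaving out each array.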

Additional observations from a re-analysis of the deposited data

Results flagged for a closer look

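The OX5 drought arrays, which the comparison did not use, also had high signals at the CAMTA5 locus. CAMTA5 averaged 346.3 in the 2 OX5 arrays (402 and 290), against 198.4 in the 3 Col-0 drought arrays, whose highest value was 232. The OX5 arrays were also brighter over the dimmer probe sets as a whole. Their 40th percentiles were 105.2 and 89.25, against 64.41 to 69.19 on the Col-0 drought arrays. How much of the CAMTA5 difference goes with that shift was not tested. AT4G16146 is the adjacent protein-coding gene on the side of lower locus numbers. It averaged 1951 in the OX5 arrays (1938 and 1964), against 175.5 in the Col-0 drought arrays, whose highest value was 210. Its signal in the camta5 drought arrays was 411 to 1136. These values were flagged because they lie above the controls in data outside the comparison, and no test was run on them. No other result was flagged. Groups of 3 arrays are too small for a test of single outlying samples.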

How the results depend on the processing

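Against 159 higher and 88 lower calls, limma gave 103 and 42 with no filter, 85 and 32 without the trend, 21 and 9 at an adjusted p under 0.01, 66 and 26 at 2-fold or more, and 0 and 0 with camta5 water replicate 1 counted as Col-0. With the replicate block they were 126 and 52. The numbers of the titles were not taken to pair samples. Deviations from the group means correlated by -0.184 to 0.253 between arrays of the same number and by -0.34 to 0.191 otherwise. Not every array correlated best with its own number. Between Col-0 and camta5 drought arrays, the same-number values were 0.242, 0.253 and -0.18 for replicates 1, 2 and 3. The crossed values of replicates 1 and 2 were -0.312 and -0.34, so pairing by number in drought was not settled. Leaving out single arrays gave 77 to 163 higher and 26 to 65 lower calls, 0 to 30 for the difference between treatments, 61 to 573 within drought and 0 within water. Fits of 1 treatment's 6 arrays gave 9 within drought and 45 within water. Offsets of 1 and 64, the 60th-percentile filter, quantile and median scaling, robust trend, array weights, the group-mean fit and all 14 arrays kept both counts within 1.5 times. Single calls still ended under these settings. That of BPC1 did so under all of them except the offset of 64, the 60th-percentile filter and the robust trend. Quantile normalization gave 199 non-overlapping calls, against 193. Of 41 called genes refitted under 24 to 27 settings each, none changed sign, 18 stayed called without any 1 array and 8 lost their call only when camta5 water replicate 1 was counted as Col-0. Without camta5 drought replicate 1 the plastid-encoded median in drought was 0.03 instead of 0.45, and without Col-0 drought replicate 3 the flavonoid median was -1.23 instead of -2.12. CAMTA5 was called under none of these settings (0.26 to 0.43). MAS5 signals near the floor are noisy, and 3 arrays a group limit what can be told apart.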
